A study of Mus musculus with 6 samples.

Results

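The heterogeneous nuclear ribonucleoprotein (hnRNP) genes and the serine and arginine rich (SR) splicing factor genes were taken as all protein-coding rows of the deposited table whose symbol starts with Hnrnp or with Srsf and a digit. This gave 31 genes of 28752 in the table, with 20 hnRNP genes and 11 SR genes. The rule reads the symbols alone, and the families were picked with earlier results of these data known.

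RNA sequencing was done on intestinal crypt stem cells from Lgr5-GFP mice, labelled WT, that were isolated as Lgr5+ and grown as crypt-villus organoids. One group carried the control vector (vector, n = 3) and the other overexpressed the circular RNA circEZH2_005 from an adenovirus (circEZH2_005, n = 3). Cells in both groups were infected for 72 h and then went through hypoxia/reoxygenation (H/R), with 4 h in 2% O2, so every comparison is made under H/R, without cells that had normal oxygen throughout. The labels do not say which samples came from separate animals or cultures, so the p-values measure the spread between these samples, which may be technical.

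hnRNP proteins bind nascent transcripts and often hold splice sites or exons back from the splicing machinery, and several also control mRNA export, stability and translation. SR proteins carry RNA recognition motifs and a tail of alternating arginine and serine, and mostly help the spliceosome to recognise exons. Both families adjust their own mRNA through alternative exons that lead to nonsense-mediated decay. The study examined hnRNPA1, a splicing repressor that moves between nucleus and cytoplasm, beside circEZH2_005, and the levels of its mRNA and of its relatives are set out here.

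Total counts lay between 71506487 and 79919893 per sample. CPM values are counts scaled to a common library size after TMM correction, with factors between 0.931 and 1.04, and 3 counts corresponded to at most 0.0419 CPM, for counting error only. Vector sample 2 lay nearest to the other group, with a correlation of log2 CPM across genes of 0.969 to circEZH2_005 sample 1, against 0.951 and 0.955 for vector samples 1 and 3. Of the 18348 genes tested with edgeR, 493 were higher and 181 lower in circEZH2_005 samples at an adjusted p under 0.05, and with limma on log2(FPKM + 1) 364 of 735 called genes were lower. The count of 674 was 1432 without vector sample 2, and 28, 33, 68 and 169 without vector samples 1 and 3 and circEZH2_005 samples 2 and 3. The stem cell marker Lgr5 was detected in every sample, with 901 to 1436 counts in vector and 552 to 680 in circEZH2_005 samples. The summed CPM of 14 leukocyte markers was 114 to 327 in vector and 466 to 769 in circEZH2_005 samples, with none of the 14 at 0 in any sample and a median log2 fold change of 1.63. edgeR called 0 of these 14, 9 had an unadjusted p under 0.05, all higher, and DESeq2 called 7. The summed CPM of 10 enterocyte markers was 16014 to 18609 and 16693 to 32359 (1 called higher), and that of 10 crypt stem cell markers was 1723 to 2607 and 1232 to 1814 (2 called lower). For 10 proliferation markers the summed CPM was 1652 to 1865 and 1551 to 2030. In these bulk samples fewer cells of a type and less RNA per cell cannot be told apart, and the part of these shifts in the results that follow was not tested.

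Both families were expressed at high levels, and hnRNP genes held the top of the order. Levels are compared between genes as FPKM, the authors' value of fragments per kilobase of transcript at a common library size. In vector samples Hnrnpab had 188 ± 12.6 FPKM (SD, n = 3), Hnrnpa2b1 173 ± 14.5, Hnrnpf 161 ± 11.7 and Hnrnpa1 154 ± 2.56. The ranges of neighbours in this group of 4 overlapped, and none overlapped the next gene, Srsf2, at 79.6 ± 8.17 FPKM. Srsf2 and Srsf5 (76.6 ± 6.42 FPKM) were the SR genes with the highest levels, and their ranges overlapped. The median over hnRNP genes was 36.5 FPKM and that over SR genes 39.1 FPKM, beside 2.48 FPKM over all genes tested. At the low end stood Hnrnpll (6.62 ± 0.424 FPKM), Hnrnpr (3.62 ± 0.153 FPKM) and Srsf12 (0.0277 ± 0.0229 FPKM), each apart from its neighbours. Srsf12 had 4, 15 and 4 counts in vector and 11, 16 and 6 in circEZH2_005 samples, and it is left out of the mean log2 CPM and the median deviations of SR genes by sample. The place of Hnrnpa3 in the order, at 16.2 ± 10.5 FPKM, is uncertain, since near-identical copies of the gene held more counts than the gene, as described further on.

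**Figure D1:**
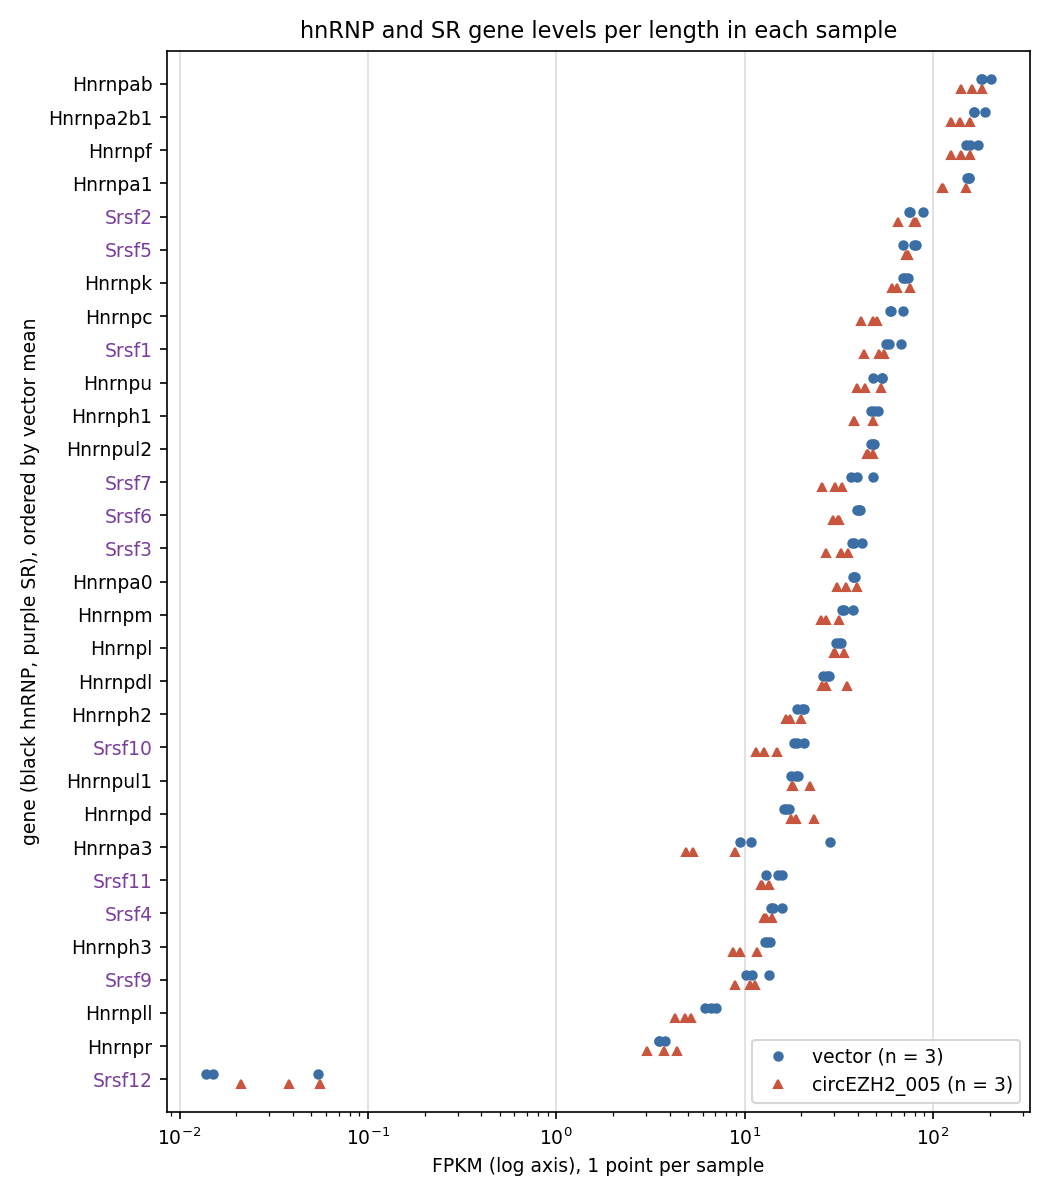
FPKM of the 31 genes on a log axis, 1 point per sample, with vector samples as circles and circEZH2_005 samples as triangles, ordered by the vector mean. Hnrnpab, Hnrnpa2b1, Hnrnpf and Hnrnpa1 stand above 150 FPKM in vector samples, and Srsf12 stands far below the others.

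In edgeR, no hnRNP gene and 1 SR gene, Srsf10, were called between the groups once all genes were taken into account. edgeR called 0 of 20 hnRNP genes and 1 of 11 SR genes at an adjusted p under 0.05, where 3.67% of all genes tested were called and 0.986% were called lower. At an unadjusted p under 0.05 there were 6 hnRNP genes (5 lower, 1 higher) and 3 SR genes, all lower, where all genes gave 23.7% in either direction and 9.72% lower. DESeq2 called 4 hnRNP and 3 SR genes, where 13.9% of the 16459 genes with an adjusted p were called. limma on log2(FPKM + 1) called 0 and 2, where 5.54% of 13278 genes were called. All 31 genes passed the filter on low counts.

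Most members had small negative differences. The log2 fold change (circEZH2_005 over vector) was below 0 for 14 of 20 hnRNP genes and 8 of 11 SR genes, where 50% of all genes tested were below 0. Its median was -0.10 over hnRNP genes and -0.12 over SR genes (-0.16 without Srsf12), beside 0.00 over all genes. Both medians stayed below 0 under all 15 alternatives that give one, between -0.19 and -0.05 for hnRNP and between -0.25 and -0.09 for SR genes. The lowest of these come from limma on FPKM, where the median over all genes was itself at -0.07 or -0.09 with a filter on low values. Measured from the median over all genes in the same fit, the ranges were -0.18 to -0.05 and -0.18 to -0.10. All circEZH2_005 samples lay below all vector samples in CPM for 7 hnRNP and 5 SR genes, against 14.2% of all genes, and above them for 3 hnRNP and 0 SR genes, against 16.4%. The 95% interval of the log2 fold change had a median width of 0.42 for hnRNP and 0.48 for SR genes, so that differences of the size seen for most members could not be told from 0 with 3 samples a group.

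**Figure D2:**
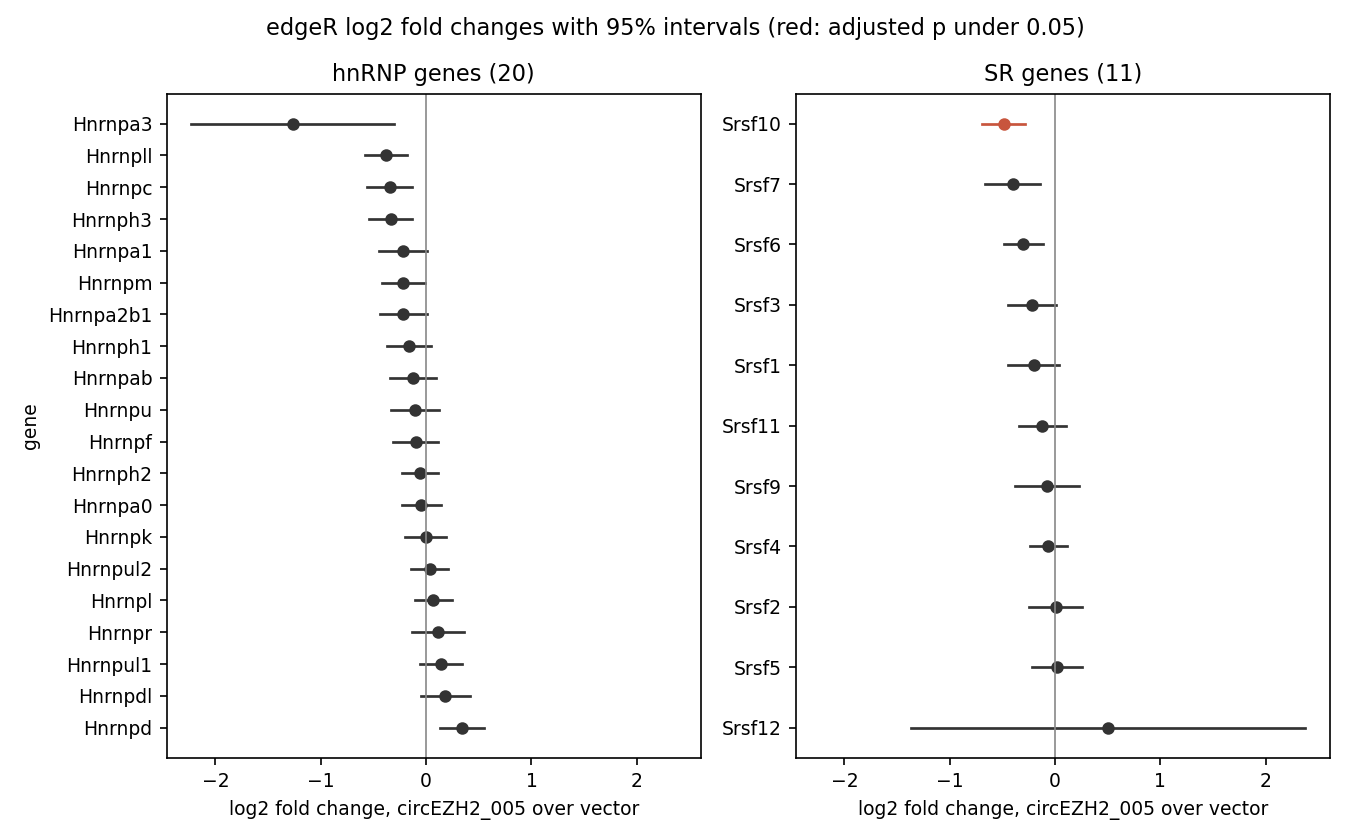
edgeR log2 fold change of each gene (circEZH2_005 over vector), with hnRNP genes left and SR genes right, as points with lines for the 95% interval. Srsf10 is marked in red as the gene with an adjusted p under 0.05, and Hnrnpa3 and Srsf12 have the widest intervals.

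Among SR genes, Srsf10, Srsf7 and Srsf6 had the largest negative differences. Srsf10 encodes an SR protein that becomes a general splicing repressor when it loses its phosphates. The gene (ENSMUSG00000028676, chr4:135855747-135869908, plus strand, GRCm38) had 10252, 11511 and 11295 counts in vector samples 1 to 3 and 8901, 7169 and 7556 counts in circEZH2_005 samples 1 to 3. In CPM these were 142, 154 and 144 against 112, 96.3 and 105, so the groups did not overlap. Its mean fell to 0.713 of the vector level, with a log2 fold change of -0.49 (standard error 0.09, edgeR adjusted p = 0.0332). The direction held in all 16 alternatives and the call in 9, with adjusted p from 3.54e-04 to 0.133. The call was lost without vector sample 1 (edgeR adjusted p = 0.128), vector sample 3 (0.133), circEZH2_005 sample 2 (0.0985) or circEZH2_005 sample 3 (0.0848), with the replicate number as a block (0.0922), and without a filter on low values (0.0594 with edgeR, 0.103 with limma on log2(FPKM + 1)).

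Srsf7, which works in splicing and as an adaptor for mRNA export, had 143, 182 and 152 CPM in vector samples and 125, 110 and 126 CPM with circEZH2_005. The log2 fold change came to -0.40 (standard error 0.11, edgeR adjusted p = 0.0860). Srsf6, a splicing activator, had 218, 203 and 210 CPM in vector samples and 162, 169 and 181 CPM in circEZH2_005 samples, with a log2 fold change of -0.30 (standard error 0.08, edgeR adjusted p = 0.0765). For both genes the groups did not overlap, and neither passed the test in edgeR. Both passed it in DESeq2 (adjusted p = 0.0242 for Srsf7 and 0.0254 for Srsf6). With limma on log2(FPKM + 1), Srsf6 passed (adjusted p = 0.0390) and Srsf7 did not (adjusted p = 0.0718).

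The other SR genes gave no call in edgeR. Srsf3, the smallest SR protein and an export adaptor, and Srsf1, the founding member of the family, had log2 fold changes of -0.22 and -0.20, with no overlap between the groups and 95% intervals that reached 0.01 and 0.04. Srsf11, Srsf9 and Srsf4 lay between -0.12 and -0.06, and Srsf2 and Srsf5 were at 0.00 and 0.02, with the groups overlapping for all 5. For Srsf2, a protein of nuclear speckles, the 95% interval was -0.25 to 0.26, and for Srsf5 -0.22 to 0.26. Srsf12 had the largest log2 fold change of the SR genes, 0.50 (95% interval -1.37 to 2.38), on at most 16 counts in a sample.

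Among hnRNP genes the differences went both ways. Hnrnpd, also known as AUF1, binds AU-rich elements and promotes decay of the mRNAs that carry them, and it had 9677, 10058 and 10107 counts in vector and 14701, 11539 and 11664 counts in circEZH2_005 samples. In CPM these were 134, 135 and 129 against 185, 155 and 163. All circEZH2_005 samples were higher, and sample 1 was the highest. This gave a log2 fold change of 0.34 (standard error 0.09, edgeR adjusted p = 0.0739; DESeq2 adjusted p = 0.0260), the largest of the hnRNP genes. Its close relative Hnrnpdl had 139, 142 and 146 CPM in vector and 182, 156 and 146 CPM in circEZH2_005 samples, and the groups overlapped, with a log2 fold change of 0.18 (95% interval -0.05 to 0.41).

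Hnrnpll, Hnrnpc and Hnrnph3 lay lower in circEZH2_005 samples in every pair of samples, without a call in edgeR. Hnrnpll, known for its control of Ptprc (CD45) splicing in lymphocytes, had 85.2, 77.2 and 88.7 CPM in vector and 65.4, 60.2 and 66.8 CPM with circEZH2_005, a log2 fold change of -0.38 (standard error 0.09). Its edgeR adjusted p of 0.0543 was the smallest of the hnRNP genes. Without vector sample 2 that value was 0.0283, and DESeq2 gave 0.00980. Hnrnpc, which packages nascent RNA, had 281, 320 and 281 CPM in vector and 234, 215 and 244 CPM in circEZH2_005 samples, a log2 fold change of -0.35 (standard error 0.09, edgeR adjusted p = 0.0784, DESeq2 0.0215). Hnrnph3, a binder of G-rich elements, had 44.7, 46.2 and 45.0 CPM against 39.2, 33.0 and 35.4 CPM, with -0.34 (standard error 0.09, edgeR adjusted p = 0.0708, DESeq2 0.0417). Its edgeR adjusted p without circEZH2_005 sample 1 was 0.0486. The opposite-strand gene Rufy2 overlaps Hnrnph3, and 12 of the 31 genes have an overlapping gene on the other strand, whose reads could not be told apart since no source used here says whether strand was used in counting.

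Of the remaining hnRNP genes, Hnrnpm, a splicing regulator, had a log2 fold change of -0.22 (95% interval -0.42 to -0.01) with no overlap between the groups. Hnrnph1, Hnrnpab, Hnrnpu, Hnrnpf, Hnrnph2 and Hnrnpk lay between -0.16 and -0.01, with overlapping groups. The difference nearest to 0 was that of Hnrnpk, which binds C-rich sequences, with a 95% interval of -0.20 to 0.19. Hnrnpul2, Hnrnpl, Hnrnpr and Hnrnpul1 lay between 0.03 and 0.14, and for Hnrnpl and Hnrnpul1 all circEZH2_005 samples were higher. The log2 fold change of Hnrnpl was 0.07 (95% interval -0.11 to 0.24). It was -0.020 with limma on log2(FPKM + 1), where the median over all genes was -0.07 with a filter and -0.0072 without.

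The sums of both families were compared next. The summed CPM of the 20 hnRNP genes was 6257, 6703 and 6347 in vector and 6304, 5571 and 5914 in circEZH2_005 samples, and that of the 11 SR genes was 1991, 2083 and 1993 against 1795, 1708 and 1885. The SR sums did not overlap between the groups, and the hnRNP sums did, since circEZH2_005 sample 1 lay above vector sample 1. The SR sum was 31.8%, 31.1% and 31.4% of the hnRNP sum in vector and 28.5%, 30.7% and 31.9% in circEZH2_005 samples. The mean log2 CPM of hnRNP genes exceeded that of SR genes by 0.54, 0.58 and 0.52 in vector and by 0.69, 0.58 and 0.52 in circEZH2_005 samples. These ranges overlapped, and with all 20 hnRNP genes circEZH2_005 sample 1 alone stood apart, with SR genes low and hnRNP genes near the vector level. Hnrnpa3 stays in the hnRNP mean although its level is uncertain. It lay at -0.57, 0.97 and -0.41 (log2 CPM from the vector mean) in vector and -0.69, -1.39 and -1.30 in circEZH2_005 samples. The overlap depends on this gene. Without Hnrnpa3 the hnRNP excess lay higher in every circEZH2_005 sample than in any vector sample, narrowly for circEZH2_005 sample 3. That difference was not tested. Measured against the vector mean, the median hnRNP gene was at -0.02, -0.21 and -0.07 (log2 CPM) in circEZH2_005 samples 1 to 3, and the median of 10 SR genes was at -0.13, -0.26 and -0.12. Sample 2 had the lowest medians in both families, with 15 of 20 hnRNP and 9 of 10 SR genes below the vector mean. In vector sample 2 the median SR gene was at 0.08 and the median hnRNP gene at 0.03.

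**Figure D3:**
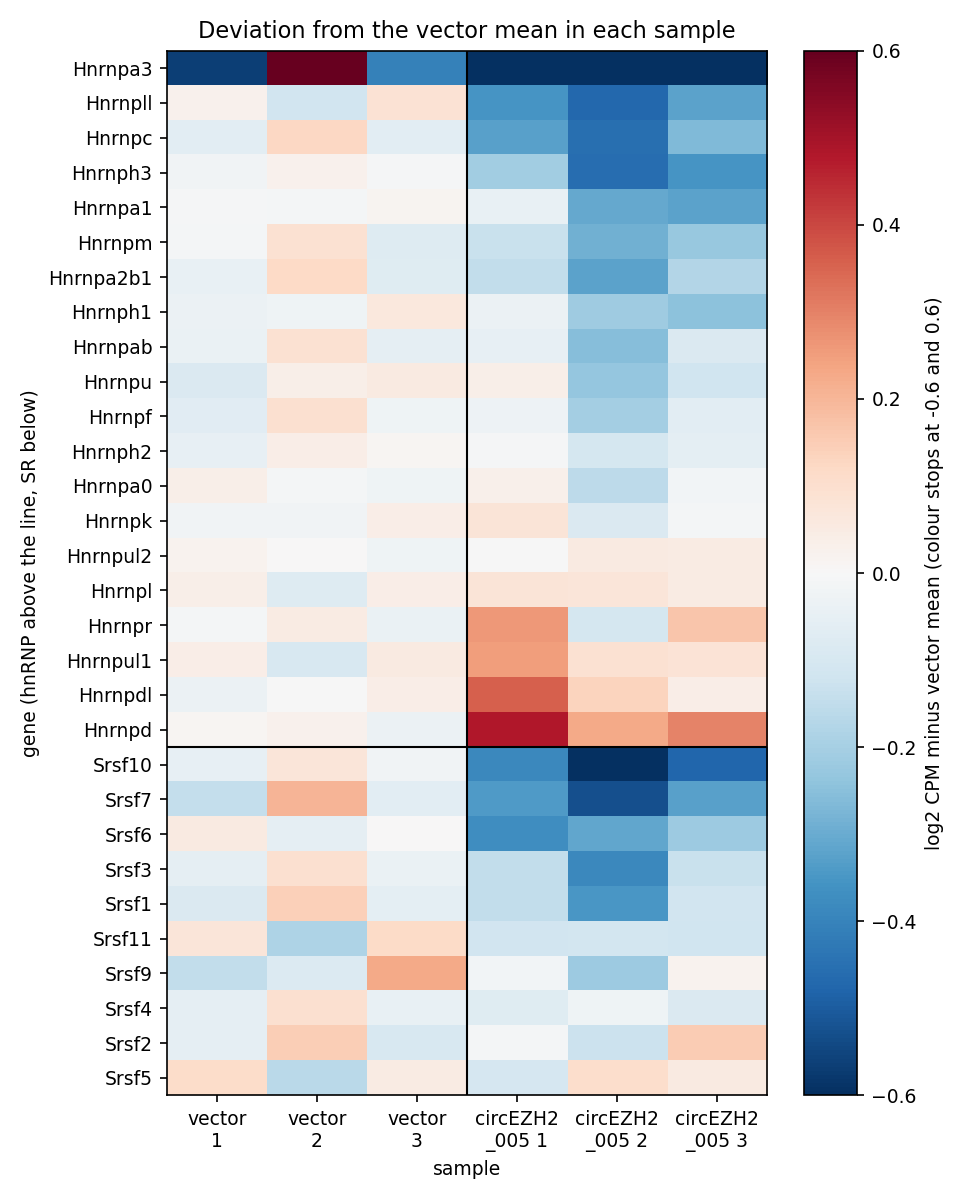
Deviation of log2 CPM from the vector mean for 20 hnRNP genes (above the line) and 10 SR genes without Srsf12 (below), with 1 column per sample and colours that stop at -0.6 and 0.6. circEZH2_005 sample 2 is lowest for most genes, and Hnrnpd and Hnrnpdl are highest in circEZH2_005 sample 1.

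Hnrnpa1 was compared with its paralogs Hnrnpa2b1, Hnrnpa0 and Hnrnpa3, which share a pair of RNA recognition motifs followed by a glycine-rich tail. The coding sequence of Hnrnpa1 (longest transcript, 1119 bases, GENCODE M21) was identical to that of Hnrnpa3 at 73.0% of 1062 aligned bases, to that of Hnrnpa2b1 at 66.5% and to that of Hnrnpa0 at 53.1%. The longest runs without a difference were 26, 18 and 13 bases. The window of 30 coding bases in which the 4 genes are most alike is printed to show how far apart the paralogs are, with bases that differ from Hnrnpa1 in capitals. It lies at chr15:103241167-103241196 (plus strand) in Hnrnpa1, chr6:51467185-51467214 (minus) in Hnrnpa2b1, chr13:58128203-58128232 (minus) in Hnrnpa0 and chr2:75661559-75661588 (plus) in Hnrnpa3, all in GRCm38.
Hnrnpa1: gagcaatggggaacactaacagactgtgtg
Hnrnpa2b1: gagcaatggggaaAGctCacagactgtgtg
Hnrnpa3: gagAaatggggCacactTacagactgtgtg
Hnrnpa0: gagGCCtTCggGacGctGacGgactgCgtg
Even here Hnrnpa2b1 and Hnrnpa3 each differ from Hnrnpa1 at 3 of 30 bases, and Hnrnpa0 at 10.

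Hnrnpa1 (ENSMUSG00000046434, chr15:103240432-103246692, plus strand) had 37897, 38979 and 41577 counts in vector and 40472, 31630 and 30116 counts in circEZH2_005 samples. In CPM these were 523, 522 and 531 against 509, 425 and 420. circEZH2_005 samples 2 and 3 were lower than the vector samples by far more than the vector samples differed, while sample 1 lay just under them. The log2 fold change was -0.22 (standard error 0.10, 95% interval -0.45 to 0.01, edgeR adjusted p = 0.231), and it lay between -0.32 and -0.17 over 16 alternatives.

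Hnrnpa2b1, which takes part in RNA transport and in processing of microRNA precursors, had 1191, 1335 and 1171 CPM in vector and 1110, 983 and 1089 CPM with circEZH2_005. Its log2 fold change was -0.22 (95% interval -0.44 to 0.01, edgeR adjusted p = 0.229), with no overlap between the groups. Within a sample, log2 CPM of Hnrnpa1 minus that of Hnrnpa2b1 was -1.19, -1.36 and -1.14 in vector and -1.13, -1.21 and -1.37 in circEZH2_005 samples. The groups overlapped, with a difference between their means of -0.01 (two-sided exact permutation p = 0.8).

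Hnrnpa0, which binds AU-rich mRNAs and has no introns in its coding sequence, had 113, 110 and 109 CPM in vector and 113, 99.2 and 109 CPM in circEZH2_005 samples, which overlap. Its log2 fold change was -0.04 (95% interval -0.23 to 0.14). Hnrnpa1 minus Hnrnpa0 was 2.21, 2.25 and 2.29 in vector and 2.17, 2.10 and 1.94 in circEZH2_005 samples on the log2 CPM scale. The groups did not overlap, with a difference of -0.18 (two-sided exact permutation p = 0.1, the smallest that 3 samples against 3 allow). It was -0.11 without circEZH2_005 sample 3.

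**Figure D4:**
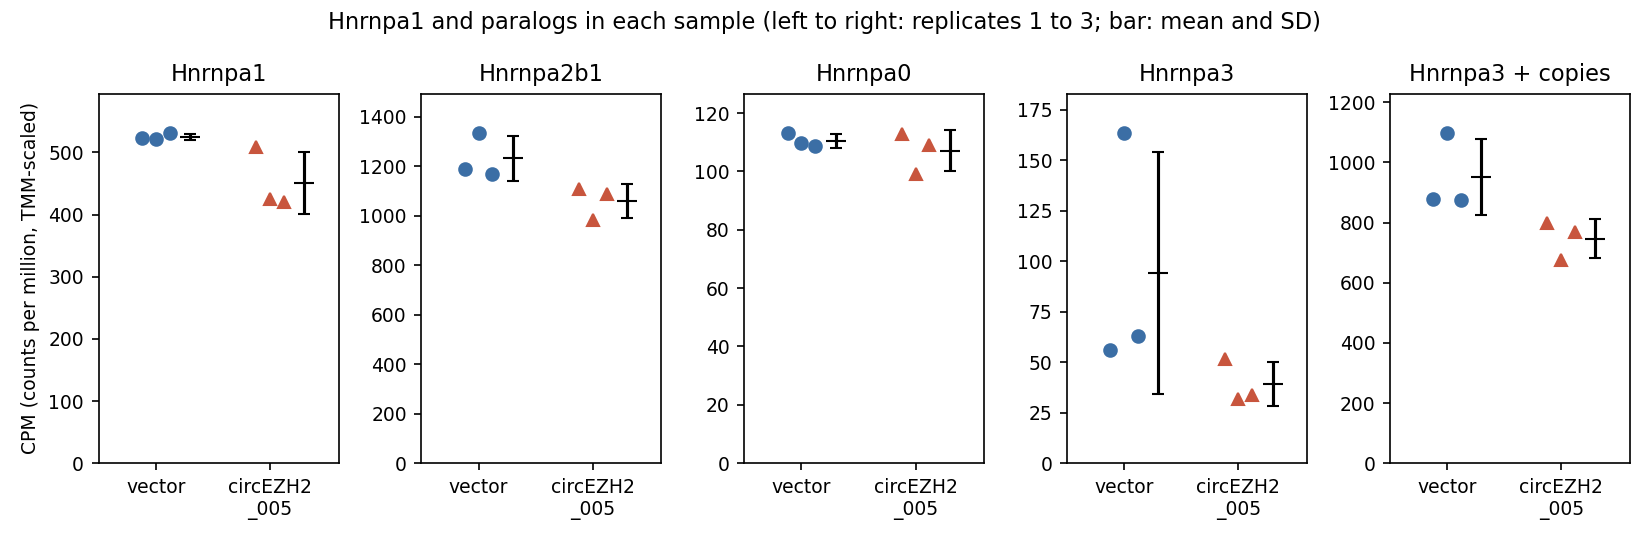
CPM of Hnrnpa1, Hnrnpa2b1, Hnrnpa0 and Hnrnpa3, and of Hnrnpa3 with the counts of its near-identical copies added, in each sample (replicates 1 to 3 from left to right), with the mean and SD of 3 samples. Axes start at 0 and differ between panels, and vector sample 2 stands far above the others for Hnrnpa3 alone.

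Hnrnpa3, an hnRNP of mRNA trafficking, had the largest negative difference of all 31 genes, and near-identical copies held far more counts than the gene itself. The gene (ENSMUSG00000059005, chr2:75659261-75669407, plus strand) had 4072, 12209 and 4912 counts in vector and 4112, 2367 and 2420 counts in circEZH2_005 samples. In CPM these were 56.2, 163 and 62.8 against 51.7, 31.8 and 33.8. Vector sample 2 was far above all others, and circEZH2_005 sample 1 lay near vector samples 1 and 3. The log2 fold change was -1.27 (standard error 0.41, 95% interval -2.23 to -0.30, fold 0.415), with an unadjusted p under 0.05 and an edgeR adjusted p of 0.119. It was the only member with a fold change over 2 at an unadjusted p under 0.05. Without vector sample 2 the log2 fold change was -0.61 (edgeR adjusted p = 0.138).

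In GENCODE M21 the longest coding sequence of Hnrnpa3 matched transcripts of 35 genes at other places with at least 90% identity over at least 50% of its length, and 31 of them are in the table. Of these 31, 29 are processed pseudogenes, which are reverse-transcribed copies of the spliced mRNA, and 2 are annotated as protein-coding. The copies held 59620, 69776 and 63633 counts in vector and 59304, 47802 and 52674 counts in circEZH2_005 samples. Hnrnpa3 itself thus made up 6.39%, 14.9% and 7.17% of the sum with the vector and 6.48%, 4.72% and 4.39% with circEZH2_005. Whether a read that matches several places was counted once or more often is not given in the sources used here.

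The window at coding bases 313 to 342 of Hnrnpa3 (chr2:75661788-75661817) is printed beside the 5 copies with the most counts. It shows how little separates a read of the gene from a read of a copy, with the bases that differ from Hnrnpa3 in capitals. The copies are Gm5641 (chr3:54481712-54481741, plus strand), Gm11847 (chr4:12233145-12233174, plus), Gm5940 (chrX:80456985-80457014, plus), Gm12960 (chr4:111808152-111808181, minus) and Gm6161 (chr1:9574822-9574851, plus). Of the windows within 1 exon that align without gaps in all 5 copies, none had more differences.
Hnrnpa3: gtggaaccgaagagagctgtttctagagag
Gm5641: gtggaaccgaagagagctgtttctagagag
Gm11847: gtggaaccgaagagagctgtttctagagag
Gm5940: gtggaaccgaagagagctgtttctagagag
Gm12960: gtggaaccAaagagagctgtttctagagag
Gm6161: gtggaaccAaagagagctgtttctagagag
Gm12960 and Gm6161 carry G9A, counted from the first base of the window, and the other 3 copies match Hnrnpa3 in full. Gm5641, whose aligned 94.0% of the coding sequence has no difference, had 17333, 20615 and 18992 counts in vector and 17364, 13934 and 15669 counts in circEZH2_005 samples, several times the counts of Hnrnpa3 itself in all samples but vector sample 2.

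With the counts of the 31 copies added, Hnrnpa3 had 880, 1097 and 876 CPM in vector and 798, 674 and 769 CPM in circEZH2_005 samples. The groups did not overlap, and the log2 fold change was -0.35 (standard error 0.12, 95% interval -0.63 to -0.07, edgeR adjusted p = 0.138) in place of -1.27. The 11 copies with at least 1000 counts in every sample had log2 fold changes between -0.44 and -0.17. edgeR called 0 of the 23 copies tested, with a smallest adjusted p of 0.0988 among the 11. Of the 23, 6 had an unadjusted p under 0.05, where 23.7% of all genes tested did. Vector sample 2 was highest for the copies as well, at 934 CPM against 823 and 813 CPM in vector samples 1 and 3, but by a much smaller factor than for Hnrnpa3 itself. Hnrnpa1 minus Hnrnpa3 on the log2 CPM scale was 3.22, 1.67 and 3.08 in vector and 3.30, 3.74 and 3.64 in circEZH2_005 samples. The groups did not overlap, with a difference of 0.90 (two-sided exact permutation p = 0.1, the smallest possible), which was 0.41 without vector sample 2. With the copies of both genes added the difference was 0.12, and the groups overlapped (two-sided exact permutation p = 0.5).

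**Figure D5:**
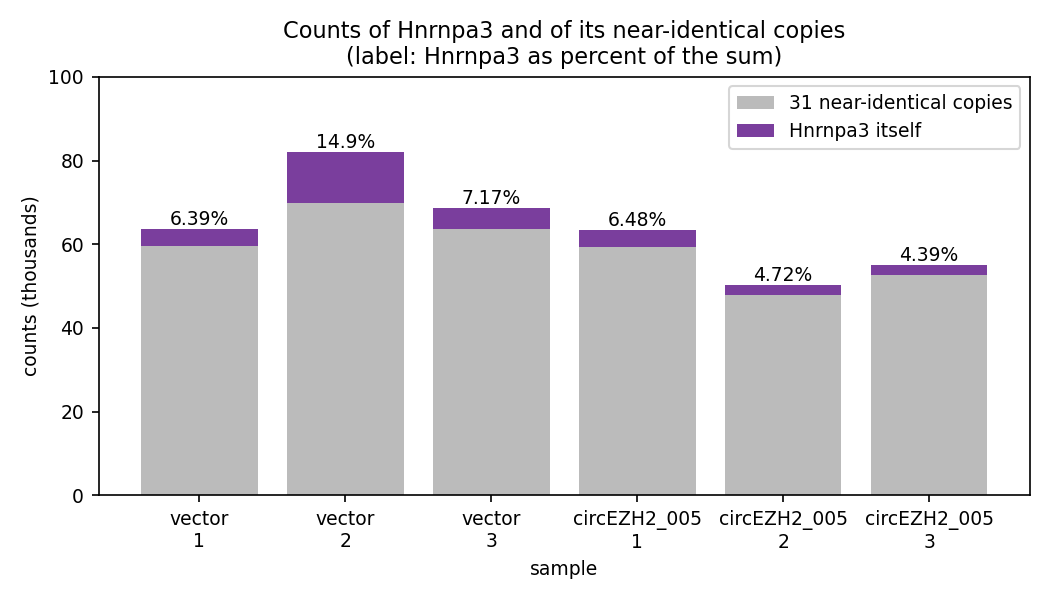
Counts (divided by 1000) of Hnrnpa3 (purple) stacked on those of its 31 near-identical copies (grey) in each sample, with the share of Hnrnpa3 in the sum printed above each bar. The share is 14.9% in vector sample 2 and between 4.39% and 7.17% in the others.

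Copies held smaller shares of the counts for the other genes. Hnrnpf, another binder of G-rich elements, had 7 copies that held 35.1% as many counts as the gene, and its log2 fold change was -0.10 alone and -0.09 with them. Hnrnpk had 2 copies with 10% as many counts, Hnrnpa1 9 copies with 6.78%, Srsf5 1 copy with 4.75% and Srsf3 3 copies with 3.74%. For Hnrnpa1 the log2 fold change was -0.22 alone and with copies. The 2 copies of Srsf10 held 0.450% as many counts as the gene, and its log2 fold change was -0.49 alone and with them.

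The annotation shows a feature that the gene symbols did not select for. By the transcript types given in the deposited table, 9 of 11 SR genes (81.8%) and 10 of 20 hnRNP genes (50%) have a transcript marked for nonsense-mediated decay. The share was 18.0% of the 16932 protein-coding genes in the table. For transcripts with a retained intron the shares were 72.7%, 70.0% and 47.0%. These shares were not compared among genes of like expression level or like number of annotated transcripts. GENCODE M21 also has 9 SR genes with a decay transcript. In 5 of them (Srsf3, Srsf4, Srsf7, Srsf9 and Srsf11) the stop codon of such a transcript lies in an exon that no protein-coding transcript of the gene overlaps. Srsf10 has no transcript of this kind in the annotation. Counts are per gene, so these transcripts could not be measured apart from the protein-coding ones.

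Other genes of splicing were counted in 5 lists, beside the 3.67% called over all genes tested. Of 20 hnRNP-class genes without an Hnrnp symbol edgeR called 1 (5%), Msi1, an RNA-binding protein of stem and progenitor cells that represses translation. Msi1 had 1185, 1041 and 1476 counts in vector and 520, 505 and 617 counts in circEZH2_005 samples, and in CPM it fell without overlap. Its log2 fold change was -1.16 (standard error 0.17, edgeR adjusted p = 0.0215). The median of this list was -0.04, with 11 of 20 below 0. Without vector sample 1, vector sample 3 or circEZH2_005 sample 2 no gene of the list was called, and without vector sample 2 there were 2.

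Of 20 SR-related genes without an Srsf symbol edgeR called 1 (5%), Luc7l3, a relative of a yeast protein of the U1 particle. Luc7l3 had 8386, 8611 and 8813 counts in vector and 7360, 6436 and 6493 counts in circEZH2_005 samples, and it also fell without overlap. Its log2 fold change was -0.35 (standard error 0.07, edgeR adjusted p = 0.0452). In this list 15 of 20 genes lay below 0, the median was -0.11, and 7 had an unadjusted p under 0.05, against 23.7% of all genes tested. Its call was lost when any sample other than vector sample 2 was left out.

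In the remaining lists edgeR called 0 genes. Over all genes, 23.7% had an unadjusted p under 0.05 in edgeR, and DESeq2 called 13.9% of those with an adjusted p. Of 15 kinases, importins and methyltransferases that act on SR and hnRNP proteins, 2 had an unadjusted p under 0.05 and DESeq2 called 0. The median was -0.02, with log2 fold changes from -0.25 (Prmt5, a methyltransferase) to 0.44 (Srpk3, an SR protein kinase with at most 23 counts). Of 47 core spliceosome genes, 3 had an unadjusted p under 0.05 and DESeq2 called 0, with 31 below 0, a median of -0.05 and a range from -0.35 (Lsm7) to 0.20 (Snrpc, of the U1 particle). Of 14 genes of nonsense-mediated decay and the exon junction complex, 3 had an unadjusted p under 0.05 and DESeq2 called 1. The median was 0.00, from -0.29 (Upf3b) to 0.37 (Smg6, the nuclease of the pathway).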

How the data were processed

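Poly(A) RNA was sequenced in 6 samples. The submitters' processing notes name cutadapt 1.9, HISAT2 2.0.4, StringTie 1.3.4d, DESeq2 and the build mm10, without settings. The authors deposited raw counts per gene and sample, and FPKM values, which they scaled for transcript length and library size. The control columns were taken as the vector samples, and every value column (0 left over) was used. Counts were filtered with filterByExpr, scaled with TMM and tested in edgeR 4.0.16 (R 4.3.3, quasi-likelihood F-test, no covariate), with Benjamini-Hochberg adjustment over all genes tested. A call is an adjusted p under 0.05, and a standard error is the absolute log2 fold change over the root of F. Log2 CPM used a prior count of 2. The fit was tested on simulated data. Exact two-sided permutation tests served for single differences. DESeq2 1.42.0, limma 3.58.1 on log2(FPKM + 1), other scalings, filters and samples left out served as alternatives. Adding the copies was chosen after seeing the data. Copies were found with blastn 2.17.0 and paralogs aligned with mafft 7.526, on GENCODE M21 transcripts (GRCm38), where 27 of the 31 genes have the positions of the table.

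The genes and lists were chosen with earlier results of these data known. Named with values in every sample were Hnrnpa1 and its paralogs, members with an adjusted p under 0.05 and the highest and the lowest log2 fold change of each family. Values of Srsf7, Srsf6, Hnrnpdl, Hnrnpll, Hnrnpc, Hnrnph3 and Gm5641 were added after their results were seen. Of each other list, called genes, or else the genes with the highest and the lowest log2 fold change, were named. Same-numbered samples did not deviate together (correlations of -0.14, -0.02 and 0.04), so they were taken to share only a number.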

Additional observations from a re-analysis of the deposited data

How the results depend on the processing

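Calls depended on the tool more than directions did. With DESeq2, 2289 of the 16459 genes with an adjusted p (13.9%) were called, 4 hnRNP and 3 SR genes, 4 hnRNP-class, 3 SR-related and 1 decay gene. The counts that follow are from edgeR unless limma is named. At an adjusted p under 0.1 in edgeR the same groups had 2079, 4, 3, 3, 4 and 1 calls, with 1 core spliceosome gene. Without a filter on low counts edgeR called 169 of all genes, 0 SR and 0 SR-related genes. With limma on log2(FPKM + 1) without a filter these were 20, 0 and 0, with 0 hnRNP-class genes. With a filter, limma gave 2 SR and 2 SR-related genes with either pseudocount, and upper-quartile factors gave 1 hnRNP and 2 SR-related genes. With the replicate block, 277 of all genes, 0 SR and 0 SR-related genes were called, so the call of Srsf10 was lost. Leaving out 1 sample at a time gave 28 to 1432 calls over all genes, 0 to 1 for hnRNP, SR and SR-related genes and 0 to 2 for hnRNP-class genes. The cause was not tested.

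The hnRNP median was -0.14 with upper-quartile factors, -0.19 in each limma fit and -0.153 to -0.0460 with 1 sample left out. Genes near 0 changed sign. The median over all genes was -0.0739 and -0.0940 in the filtered limma fits with pseudocounts 1 and 0.1, and -0.0435 with upper-quartile factors. Measured from these medians, Hnrnpl, Srsf5 and Hnrnpul2 stayed above 0 in these 3 fits, and Srsf2 did except with a pseudocount of 1 (-0.0088). In the limma fit on log2(FPKM + 1) without a filter the median over all genes was -0.0072. Measured from it, Hnrnpl was at -0.013, Srsf5 at -0.061, Hnrnpul2 at -0.046 and Srsf2 at -0.075. With limma on log2(FPKM + 1), filtered or not, and then on log2(FPKM + 0.1), Hnrnpl was at -0.0203 and -0.0210, Srsf5 at -0.0681 and -0.0689, Srsf2 at -0.0827 and -0.0837 and Hnrnpul2 at -0.0535 and -0.0545. With upper-quartile factors Srsf5 was at -0.0278, Srsf2 at -0.0381 and Hnrnpul2 at -0.0106. With 1 sample left out, Hnrnpa0 lay between -0.0858 and 0.0073, Srsf5 between -0.0584 and 0.0742, Hnrnpk between -0.0512 and 0.0321, Srsf9 between -0.150 and 0.0426, Srsf2 between -0.0746 and 0.0827, and Hnrnpa1 minus Hnrnpa2b1 between -0.0729 and 0.0596. Srsf12, with at most 16 counts in a sample, had the widest interval of the SR genes.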
